A study of Arabidopsis thaliana with 8 samples.

Results

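Rosettes of *ros1* plants treated with the herbicide imazethapyr were compared with rosettes of treated wild-type plants of the same age. The comparison covers the 11898 genes that had an FPKM of at least 1 in 1 of the treated groups and that the deposited sheet for this pair lists. That sheet holds 12189 genes, of which 291 stayed under 1 FPKM in both groups, and the series holds 34133 genes in all. FPKM counts sequenced fragments relative to the length of a transcript and to the size of the library. Genes that were already different between the untreated genotypes were separated from those that differed under treatment alone.

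The 4 groups of 3-week-old plants were *ros1* IM, WT IM, *ros1* control and WT control. IM stands for 10.6 g ha-1 imazethapyr sprayed with 0.5% v/v of the adjuvant Dash, the control groups are called mock or untreated in the labels, and all plants were collected after 48 h. Each group had 2 libraries, and each library was made from the entire rosettes of 2 plants. Wild type is the accession Columbia-0. The *ros1* plants are 1 insertion line with a T-DNA ahead of the coding sequence, which the study describes as a hypomorphic allele, that is, one with reduced function. The study's dose series names Dash for all doses, zero included, but the labels do not say whether the sequenced controls received it, and the parts of imazethapyr and of its adjuvant were not tested.

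*ROS1* encodes a DNA glycosylase that cuts methylated cytosines out of DNA and thereby counteracts RNA-directed DNA methylation. It is known for keeping methylation from spreading from transposons into nearby genes, and some genes with such elements in their promoters are silent when it is missing. Imazethapyr is an imidazolinone that blocks acetolactate synthase, the enzyme that starts branched-chain amino acid synthesis in the plastid. At lethal doses plants die from it over days to weeks, and growing tissue stops first. The study chose the dose used here as sublethal, since treated wild-type plants could survive and reproduce.

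The tables give each group a single FPKM, pooled by the authors over its 2 libraries, so the spread between libraries is not known here and no value has a standard deviation. All comparisons below are therefore descriptions of 4 pooled values per gene, with no test, and a gene is called different where its pooled FPKM differ at least 2-fold. The tables give no read counts, so the depth behind a value is unknown. The RNA comes from whole rosettes, so fewer cells of a type and less RNA per cell cannot be told apart.

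The gene behind the label came first. *ROS1* (AT2G36490) had a pooled FPKM of 4.08 in *ros1* IM and 16.7 in WT IM, against 19.0 in *ros1* control and 24.998 in WT control. The treated groups thus differ in *ROS1* as labelled, while the untreated groups differ by less than 2-fold. The study bases its description of a knock-down allele on an FPKM of 16.7 in wild type and 4.08 in *ros1*, without naming the treatment. Those values equal the treated pair here, and the untreated pair differs less.

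Several loci stood nearly on in 1 genotype and nearly off in the other, with or without herbicide. Of 17187 genes with a value in all 4 groups, 25 had at least 10 FPKM in both WT groups and under 1 in both *ros1* groups, and 7 showed the reverse. The 25 lie on all 5 chromosomes. One of them is the arginase gene *ARGAH2* (AT4G08870), with 0.170 FPKM in *ros1* IM and 84.0 in WT IM, and 0.132 in *ros1* control and 66.3 in WT control. *ECS1* (AT1G31580), which has been linked to resistance against a bacterial pathogen, was 473-fold lower, the largest ratio among genes already lower with at least 1 FPKM in both treated groups. It had 4.85 in *ros1* IM and 2293 in WT IM, with 4.71 in *ros1* control and 4480 in WT control. The retroelement copy *SADHU1-1* had 1.97 in *ros1* IM and 276 in WT IM, with 0.775 in *ros1* control and 225 in WT control. *UBQ10* (AT4G05320), a polyubiquitin gene that is often used as a reference, is not such an on and off locus but was lower in both *ros1* groups. It had 588 in *ros1* IM and 1674.5 in WT IM, against 163 in *ros1* control and 712 in WT control. Of 7 listed reference genes, it was the only 1 at least 2-fold different in treated plants, and their median log2 ratio was 0.06. Differences between the lines that do not come from *ROS1* cannot be told apart from those that do, since a single mutant line was sampled, and the genetic background of that line was not tested here. Genes already different in untreated plants made up between 12.9% and 16.0% of the members on each chromosome. Within 250000 bp on each side of *ROS1* they were 5 of 68 members, or 7.35%.

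Of the 11898 genes, 2036 (17.1%) had at least 2-fold more transcript in *ros1* IM and 3687 (31.0%) at least 2-fold less. The remaining 6175 differed by less. The sheet lists only genes that the authors marked as significant in this pair, so these shares are high by construction. The counts of members in the lists below are to be read beside them. When values were joined from all tables, 16329 genes with at least 1 FPKM could be compared, of which 13.2% were higher and 22.9% lower. Differences of at least 8-fold were seen in 369 genes on the higher and 862 on the lower side. Lower transcripts in treated *ros1* were thus the more frequent and the larger differences.

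Most of these differences were seen under treatment alone. Of the genes higher in *ros1* IM, 573 (28.1%) were already at least 2-fold higher in *ros1* control than in WT control, and 1374 (67.5%) were higher only under treatment. Of the genes lower in *ros1* IM, 1093 (29.6%) were already lower and 2529 (68.6%) were lower only under treatment. The other 89 and 65 genes differed at least 2-fold in the opposite direction in untreated plants. In the untreated comparison itself, 6.55% of 18799 genes were at least 2-fold higher in *ros1* control and 10.5% lower. For 442 of the genes higher only under treatment and 146 of those lower only under treatment, both untreated groups stayed under 1 FPKM, so that an untreated difference could not be seen.

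**Figure D1:**
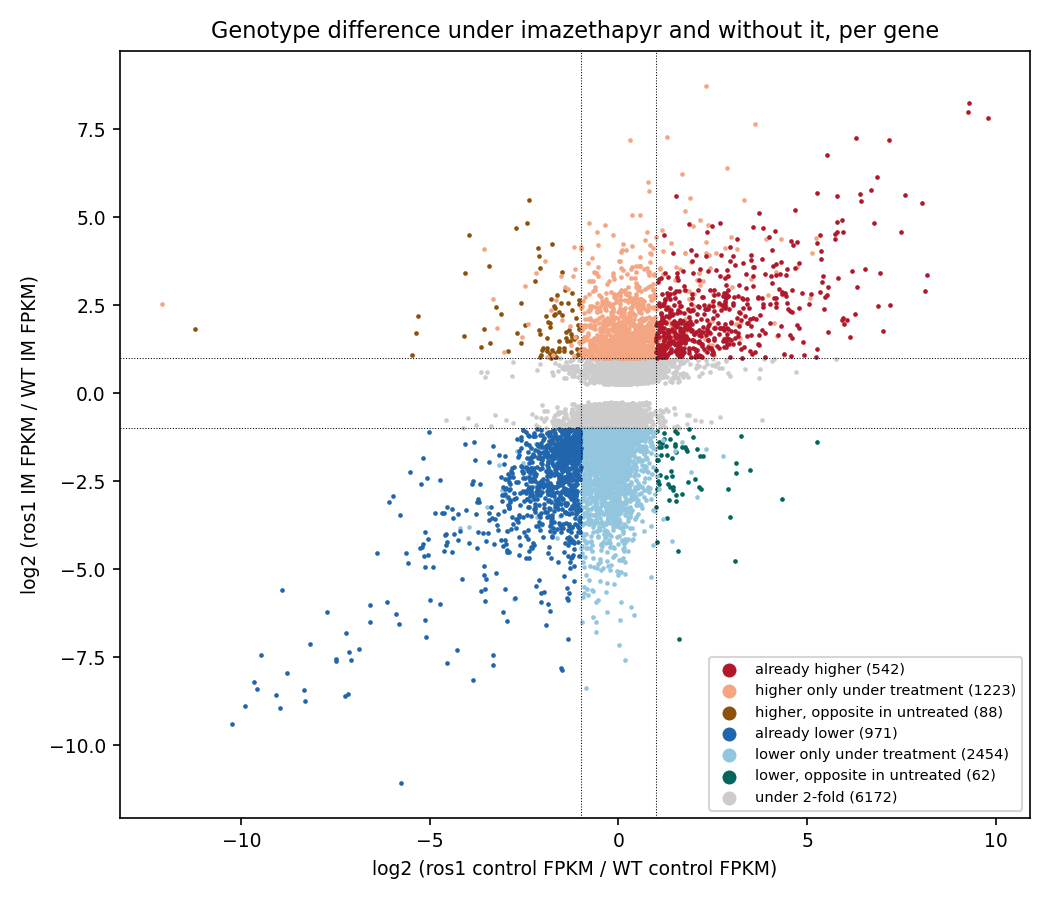
Each point is 1 of 11512 genes with a finite ratio in both comparisons, with the log2 ratio of *ros1* control to WT control on the horizontal axis and that of *ros1* IM to WT IM on the vertical axis, coloured by class with the number drawn in the legend. Dotted lines mark 2-fold, and the empty band around 0 arises because the sheet lists only genes marked by the authors. Light red and light blue points beyond the vertical lines had under 1 FPKM in both untreated groups. Grey points differed by less than 2-fold in treated plants, whatever their untreated ratio.

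The classes differ in what the groups had before and after treatment. Genes lower only under treatment had a median FPKM of 3.13 in *ros1* IM and 12.0 in WT IM, against 16.9 in *ros1* control and 20.3 in WT control. Their median log2 ratio between the genotypes was −0.25 without herbicide, and the median log2 difference between treated and control plants was −2.41 in *ros1* and −0.82 in WT. Genes higher only under treatment had a median of 18.9 in *ros1* IM and 5.67 in WT IM, against 3.999 in *ros1* control and 3.70 in WT control. Here the median log2 difference from the control was 2.13 in *ros1* and 0.65 in WT. Each response shares libraries with the comparison that defined the classes, so these medians describe the classes only.

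In the classes that were different beforehand, the medians of the genotypes lay apart in both treatments. Genes already higher had a median FPKM of 22.1 in *ros1* IM and 4.77 in WT IM, against 6.13 in *ros1* control and 1.095 in WT control. Genes already lower had a median of 1.86 in *ros1* IM and 12.1 in WT IM, against 3.46 in *ros1* control and 13.7 in WT control. Over 11087 genes with finite ratios and at least 1 FPKM in an untreated group, Pearson's r between the treated and untreated log2 ratios was 0.58. This is a description across genes, which are not independent replicates, and the 4 groups share no library between the ratios. The sheet leaves out most genes with a treated ratio near 1, which can raise r. A value over all expressed genes was not computed.

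The transition at 2-fold is continuous. The kelch repeat gene AT1G74150 was 2.0002-fold and the copper-binding protein gene AT4G21140 2.0014-fold higher, while *IDH-V* (1.9995-fold) and AT5G61820 (1.9989-fold) fell just short. On the lower side, AT5G45280 (2.0001-fold) and AT1G55152 (2.0002-fold) were just inside, and *CENP-C* (1.9991-fold) and *STN8* (1.9983-fold) just outside.

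Genes of light harvesting and the photosystems were lower in treated *ros1* throughout. All 33 listed genes passed 2-fold in *ros1* IM relative to WT IM, by between 3.81-fold and 88.3-fold. Their median log2 ratio was −3.13, against −0.33 over all members, while in untreated plants it was −0.11. Of the 33, 29 were lower only under treatment. The antenna gene *LHCB1.3* (AT1G29930), which encodes the main chlorophyll-binding protein of photosystem II, had 103 FPKM in *ros1* IM and 3684 in WT IM, against 14958 in *ros1* control and 15154 in WT control. *LHCA2* (AT3G61470) of the photosystem I antenna had 85.6 in *ros1* IM and 1065 in WT IM, against 2322 in *ros1* control and 2858 in WT control. Both genes were nearly equal in untreated rosettes and lower in both treated groups, most of all in *ros1*. Summed over the 33 genes, the pooled FPKM was 2862 in *ros1* IM and 22440 in WT IM, against 82908 in *ros1* control and 87686 in WT control.

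A few antenna genes went another way without herbicide. *LHCB4.2* (AT3G08940) had 1.18 FPKM in *ros1* IM and 104 in WT IM, and was already lower in *ros1* control, at 47.5 against 368 in WT control. *LHCB1.1* (AT1G29920) had 1.85 in *ros1* IM and 34.7 in WT IM, but 734 in *ros1* control and 361 in WT control. *LHCB2.1* (AT2G05100) was 20.5-fold lower in *ros1* IM and already lower untreated. The *LHCB1* and *LHCB2* genes are near-identical copies, so reads may have been divided among them unevenly, and their single values are uncertain.

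The carbon side of photosynthesis showed the same order of the groups with a smaller distance. Of 29 genes of the Calvin cycle and photorespiration, 28 were members, of which 24 were at least 2-fold lower, 22 of them only under treatment, and none was higher. Their median log2 ratio was −2.10 in treated and −0.16 in untreated plants. The Rubisco small subunit gene *RBCS1A* (AT1G67090) had 1042 FPKM in *ros1* IM and 6115 in WT IM, against 26309 in *ros1* control and 27669 in WT control. The aldolase gene *FBA5* (AT4G26530) had 1.96 in *ros1* IM and 26.7 in WT IM, against 251 in *ros1* control and 250 in WT control. The regulatory protein gene *CP12-2* (AT3G62410) was 14.2-fold lower in *ros1* IM and already 3.32-fold lower in *ros1* control.

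**Figure D2:**
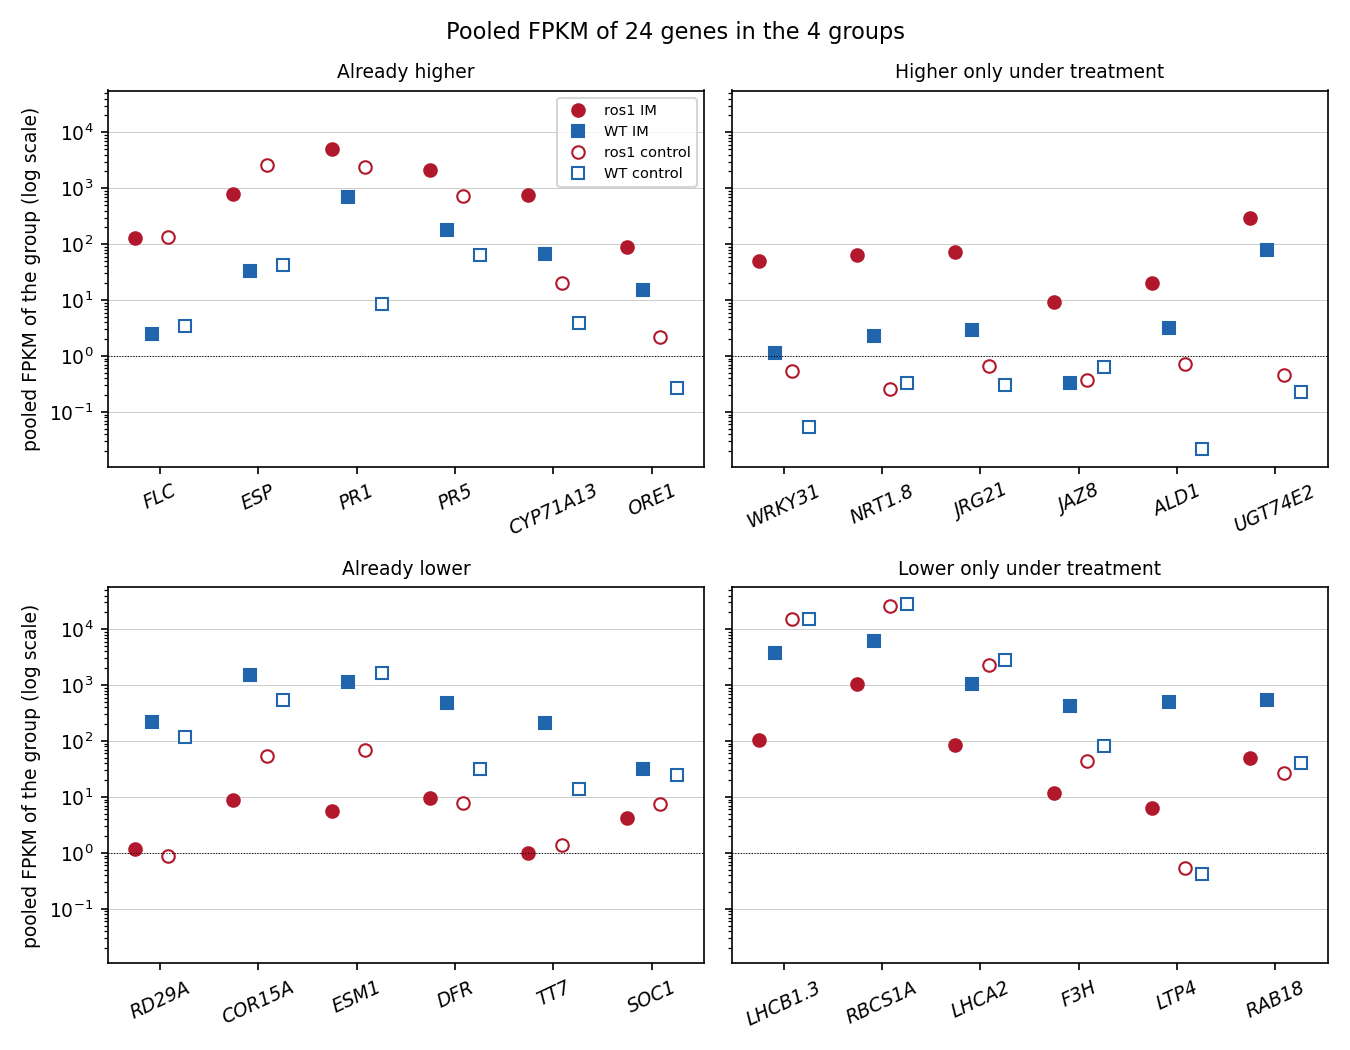
Pooled FPKM (log scale) of 6 genes in each of the 4 main classes, with *ros1* IM and WT IM as filled and *ros1* control and WT control as open symbols, and a dotted line at 1 FPKM. *LHCB1.3* and *RBCS1A* show nearly equal open symbols and a lower filled circle, whereas *FLC*, *RD29A* and *ESM1* are separated by genotype under both treatments.

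Genes of growth were lower in treated *ros1* as well. The 8 alpha-expansin members, whose products loosen the cell wall, were all at least 2-fold lower, 6 of them only under treatment, with a median log2 ratio of −3.95 (−0.49 untreated). *EXPA6* (AT2G28950) had 0.496 FPKM in *ros1* IM and 23.62 in WT IM, against 76.7 in *ros1* control and 136 in WT control. Of 15 aquaporin members, the water channels of plasma membrane and vacuole, 10 were at least 2-fold lower and none higher. With values joined from all tables, 10 of 17 were lower, and over all members 31.0% were lower. The tonoplast channel gene *TIP2;1* (AT3G16240) had 2.69 in *ros1* IM and 32.0 in WT IM, against 397 in *ros1* control and 436 in WT control. Both genes were thus lowest in *ros1* IM, and both were lower in each treated group than in its control.

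Of 30 genes of the cell cycle and DNA replication, 18 were members, and 10 of these were at least 2-fold lower and none higher. Their median log2 ratio was −1.23. With values joined from all tables, 10 of 24 were lower and the median was −0.70. The shares over all members were 31.0% lower and 17.1% higher. The mitotic cyclin gene *CYCB1;2* (AT5G06150) had 0.0924 FPKM in *ros1* IM and 1.91 in WT IM, against 21.3 in *ros1* control and 23.7 in WT control. The meristem identity gene *STM* (AT1G62360) had 0.204 in *ros1* IM and 4.58 in WT IM, against 4.34 in *ros1* control and 3.93 in WT control. *STM* was therefore low in a single group of the 4, unlike the cyclin gene, which was low in both treated groups. Of 139 genes annotated as lipid transfer proteins, which carry lipids to the cuticle and the cell wall, 44 were members, and 27 were lower and 7 higher. *LTP4* (AT5G59310) had 6.24 in *ros1* IM and 494 in WT IM, with 0.547 in *ros1* control and 0.413 in WT control. *LTP6* (AT3G08770) had 1.67 in *ros1* IM and 125 in WT IM, but 154 in *ros1* control and 190 in WT control. The difference was thus carried by a high level after treatment in WT for *LTP4* and by a low level after treatment in *ros1* for *LTP6*. A peptide hormone gene, *RGF9* (AT5G64770), and the lipid transfer gene AT1G48750 belonged to the same class, at 61.0-fold and 68.0-fold lower.

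Flavonoid synthesis had the lowest median of the 28 lists. All 19 listed enzymes were members, and 18 were at least 2-fold lower in *ros1* IM, 13 of them already lower in untreated plants and 5 only under treatment. The median log2 ratio was −4.79 with and −1.37 without herbicide. *DFR* (AT5G42800), the reductase that leads to anthocyanins, had 9.58 FPKM in *ros1* IM and 478 in WT IM, against 7.90 in *ros1* control and 31.1 in WT control. *F3H* (AT3G51240), the flavanone hydroxylase, had 11.8 in *ros1* IM and 419 in WT IM, against 43.7 in *ros1* control and 80.0 in WT control. In both cases WT IM was the high group, and *ros1* IM did not exceed *ros1* control by 2-fold. The anthocyanin transferase gene *UF3GT* (AT5G54060) was 282-fold lower and the hydroxylase gene *TT7* (AT5G07990) 212-fold lower in *ros1* IM. The member that was not lower was *BGLU10*, a glucosidase gene annotated to anthocyanin modification, with 127 in *ros1* IM and 68.4 in WT IM.

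Of 12 listed regulators of the pathway, 6 were members, and these were at least 2-fold lower, with a median log2 ratio of −2.74. Of the other 6, *TTG1* (AT5G24520) had 16.6 in *ros1* IM and 17.1 in WT IM, and 5 have no *ros1* IM value in the tables used here. The bHLH activator gene *TT8* (AT4G09820) had 0.511 FPKM in *ros1* IM and 30.0 in WT IM, against 0.927 in *ros1* control and 2.34 in WT control. The MYB gene *MYB75* (AT1G56650) had 5.45 in *ros1* IM and 105 in WT IM, against 1.43 in *ros1* control and 14.1 in WT control. Its homologue *MYB90* (AT1G66390) had 28.1 in *ros1* IM and 98.1 in WT IM, against 0.257 in *ros1* control and 1.14 in WT control. *MYB90* was therefore high in both treated groups while *TT8* was high in WT IM alone.

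Cold-regulated genes were largely different before any herbicide. Of 13 listed genes, which are *CBF* genes themselves and cold-regulated genes, 11 were members. Of these, 9 were at least 2-fold lower in *ros1* IM, 7 of them already lower in *ros1* control. The median log2 ratio was −3.13 in treated and −1.87 in untreated plants. CBF factors bind the CCGAC core of the cold and drought response element in the promoters of their target genes. *RD29A* (AT5G52310), which marks cold and drought responses, had 1.16 FPKM in *ros1* IM and 220 in WT IM, against 0.865 in *ros1* control and 118 in WT control. *COR15A* (AT2G42540), which encodes a chloroplast protein that protects membranes from freezing, had 8.74 in *ros1* IM and 1510 in WT IM, against 53.4 in *ros1* control and 533 in WT control. *RD29A* was near 1 FPKM in both *ros1* groups, whereas *COR15A* was still above 50 in *ros1* control. The zinc finger gene *ZAT12* (AT5G59820) went the other way, with 150 in *ros1* IM and 27.2 in WT IM.

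The 250 bases ahead of the RefSeq gene start are shown for 3 of the named genes, 5′ to 3′ on the strand of the gene, from the TAIR10.1 genome. They were chosen because their transcripts lie far apart between the treated genotypes and the factors that bind such promoters are well known. Capitals mark the motif searched on both strands: CCGAC, or GTCGG on the other strand, in *RD29A* (chr5:21240467-21240716, plus strand) and *COR15A* (chr2:17712331-17712580, minus strand), and ACGTG, the core of the abscisic acid response element, or CACGT on the other strand, in *RAB18* (chr5:26519448-26519697, minus strand).
RD29A: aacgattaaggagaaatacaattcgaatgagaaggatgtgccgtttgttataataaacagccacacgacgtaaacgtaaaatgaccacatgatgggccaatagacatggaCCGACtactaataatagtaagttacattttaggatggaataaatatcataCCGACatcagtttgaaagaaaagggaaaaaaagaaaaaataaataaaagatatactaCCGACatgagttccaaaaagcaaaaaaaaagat
COR15A: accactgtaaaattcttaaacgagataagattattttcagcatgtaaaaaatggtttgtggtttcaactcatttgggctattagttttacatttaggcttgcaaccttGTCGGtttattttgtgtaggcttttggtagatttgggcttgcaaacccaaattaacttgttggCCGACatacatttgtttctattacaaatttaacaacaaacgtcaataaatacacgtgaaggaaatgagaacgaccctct
RAB18: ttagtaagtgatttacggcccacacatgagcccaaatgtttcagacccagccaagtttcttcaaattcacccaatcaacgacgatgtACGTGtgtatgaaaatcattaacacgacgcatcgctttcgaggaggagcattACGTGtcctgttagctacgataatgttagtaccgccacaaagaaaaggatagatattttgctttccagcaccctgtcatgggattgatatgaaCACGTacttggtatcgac

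These windows hold 3 matches to CCGAC in *RD29A*, 2 in *COR15A* and 3 matches to ACGTG in *RAB18*. Among all 27443 promoters of this length, 12% hold CCGAC, as do 13.5% of 1019 promoters of genes already lower and 7.39% of 541 of genes already higher. Within the CBF list, 3 of the 9 lower members hold it, namely *RD29A*, *COR15A* and *COR413-PM1*. TTGAC, the core of the W-box bound by WRKY factors, is found on either strand in 44.9% of all promoters, in 60.3% of the promoters of genes already higher and in 54.1% of 1312 of genes higher only under treatment. It is in 40.7% of the promoters of genes already lower and in 40.7% of 2486 of genes lower only under treatment. ACGTG is found in 22.9% of all promoters and in between 24.9% and 29.4% of these classes. The G-box CACGTG, which contains ACGTG, is in 6.49% of all promoters and in 9.09% of those lower only under treatment. The evening element AAAATATCT is in 2.36% of all promoters and in between 2.13% and 3.18% of these 4 classes. Members that differed by less than 2-fold have 6102 promoters, of which 13.6% hold CCGAC, much as among genes already lower. In these 6102 promoters TTGAC is in 44.2%, ACGTG in 22.8%, the G-box in 7.33% and the evening element in 2.77%. A match is a description of the letters in the window and not a bound site.

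Abscisic acid and drought genes were less uniform. Of 16 members, 7 were at least 2-fold lower in *ros1* IM and 2 higher, and the median log2 ratio was −0.76. Among all members, 31.0% were lower and 17.1% higher. The dehydrin gene *RAB18* (AT5G66400) had 49.8 FPKM in *ros1* IM and 543 in WT IM, against 27.0 in *ros1* control and 41.3 in WT control. *P5CS1* (AT2G39800), the enzyme of proline synthesis, had 84.1 in *ros1* IM and 534 in WT IM, against 94.6 in *ros1* control and 118 in WT control. Both genes were alike in untreated plants and highest in WT IM. *GOLS2* (AT1G56600), a galactinol synthase of raffinose synthesis, had 1.23 in *ros1* IM and 63.5 in WT IM, against 2.07 in *ros1* control and 5.16 in WT control. It belongs to a separate list of galactinol and raffinose synthases with 3 members, of which 2 were lower and 1 higher. The higher 1 was *GOLS4* (AT1G60470), with 5.11 in *ros1* IM and 0.436 in WT IM. *RD29B* (AT5G52300), a neighbour of *RD29A*, had 7.38 in *ros1* IM and 26.7 in WT IM, but 1.23 in *ros1* control and 0.466 in WT control.

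Salicylic acid genes formed the group that was higher in *ros1* before and after treatment. Of 22 listed genes, 21 were members, and 19 were at least 2-fold higher in *ros1* IM, 16 of them already higher in *ros1* control. None was 2-fold lower. The median log2 ratio was 1.803 with and 1.88 without herbicide, so the distance between the genotypes was similar under both conditions. *PR1* (AT2G14610), a secreted defence protein used as a marker of salicylic acid, had 5111 FPKM in *ros1* IM and 688 in WT IM, against 2364 in *ros1* control and 8.41 in WT control. *PR5* (AT1G75040), a thaumatin-like protein, had 2158 in *ros1* IM and 178 in WT IM, against 741 in *ros1* control and 62.8 in WT control. *EDS5* (AT4G39030), the transporter that exports the precursor of salicylic acid from the plastid, had 86.9 in *ros1* IM and 8.16 in WT IM, against 15.9 in *ros1* control and 4.09 in WT control. For *PR1* the genotypes lay 281-fold apart without herbicide and 7.43-fold with it, and both treated groups exceeded their controls. For *EDS5* they lay further apart with treatment than without.

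Systemic resistance genes of the N-hydroxypipecolic acid pathway were split. *FMO1* (AT1G19250), the hydroxylase of the pathway, had 150 FPKM in *ros1* IM and 20.7 in WT IM, against 4.56 in *ros1* control and 0.155 in WT control. *ALD1* (AT2G13810), the aminotransferase, had 20.25 in *ros1* IM and 3.12 in WT IM, and was under 1 in both untreated groups. *SARD4* (AT5G52810), the reductase, had 6.997 in *ros1* IM and 39.3 in WT IM, against 2.76 in *ros1* control and 40.0 in WT control. The reductase gene was thus lower in *ros1* under both conditions while the other 3 listed genes of the pathway were higher.

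Camalexin, the indole phytoalexin of *Arabidopsis*, is made by enzymes whose transcripts were all higher in treated *ros1*. Of 8 members, 7 were at least 2-fold higher, and the median log2 ratio was 2.08 (1.13 untreated). *CYP71A13* (AT2G30770) had 742 FPKM in *ros1* IM and 67.2 in WT IM, against 20.4 in *ros1* control and 3.93 in WT control. *PAD3* (AT3G26830), the last enzyme, had 825 in *ros1* IM and 201 in WT IM, against 14.7 in *ros1* control and 1.85 in WT control. *CYP79B2* (AT4G39950), which feeds both camalexin and indole glucosinolates, had 409 in *ros1* IM and 56.8 in WT IM, but 22.5 in *ros1* control and 53.2 in WT control. It was therefore higher in *ros1* with herbicide and lower without.

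Jasmonate genes were divided. None of the 16 members was already higher, 7 were at least 2-fold higher in *ros1* IM, and 3 were lower. Among all members, 17.1% were higher and 31.0% lower, so the lower count does not exceed that share. The repressor gene *JAZ8* (AT1G30135) had 9.30 FPKM in *ros1* IM and 0.328 in WT IM, against 0.377 in *ros1* control and 0.645 in WT control. *JAZ10* (AT5G13220) had 17.1 in *ros1* IM and 1.39 in WT IM, against 6.49 in *ros1* control and 4.72 in WT control. The vegetative storage protein gene *VSP2* (AT5G24770), a late marker of jasmonate, had 0.963 in *ros1* IM and 118 in WT IM, against 0.998 in *ros1* control and 34.0 in WT control. The *JAZ* repressor genes did not all stand this way. Of the 8 that were members, 6 were at least 2-fold higher in *ros1* IM, while *JAZ9* had 25.05 in *ros1* IM and 37.5 in WT IM, and *JAZ12* had 77.1 in *ros1* IM and 112 in WT IM. *JAZ3*, outside the sheet, had 9.24 in *ros1* IM and 8.92 in WT IM.

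Senescence and starvation genes were mostly on the higher side. All 13 members of the 14 listed genes had a ratio above 1 and 8 were at least 2-fold higher, 6 of them already so in untreated plants, with a median log2 ratio of 1.24. *ORE1* (AT5G39610), a NAC factor that promotes leaf senescence, had 89.9 FPKM in *ros1* IM and 15.1 in WT IM, against 2.21 in *ros1* control and 0.272 in WT control. *SAG13* (AT2G29350) had 1098 in *ros1* IM and 190 in WT IM, against 36.3 in *ros1* control and 2.25 in WT control. Both were high in treated plants and higher in *ros1* in each treatment. The protease gene *SAG12* (AT5G45890), a classic marker of late senescence that is outside the sheet, had 1.62 in *ros1* IM and 2.06 in WT IM, and was listed at 0 in both control groups.

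Genes of alternative respiration and mitochondrial stress were split in both directions. Of 11 members, 6 were at least 2-fold higher and 2 lower. The alternative oxidase gene *AOX1D* (AT1G32350) had 220 FPKM in *ros1* IM and 27.1 in WT IM, against 2.02 in *ros1* control and 0.0251 in WT control. *UPOX* (AT2G21640), a mitochondrial stress protein, had 20.5 in *ros1* IM and 125 in WT IM, against 4.01 in *ros1* control and 13.7 in WT control. The glycosyltransferase gene *UGT74E2* (AT1G05680) had 293 in *ros1* IM and 77.4 in WT IM, and was under 1 in both untreated groups. Heat shock genes were also split, with 5 of 12 members at least 2-fold higher and 3 lower, all under treatment alone. Among all members, 17.1% were higher and 31.0% lower, so the lower counts of both lists do not exceed that share.

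**Figure D3:**
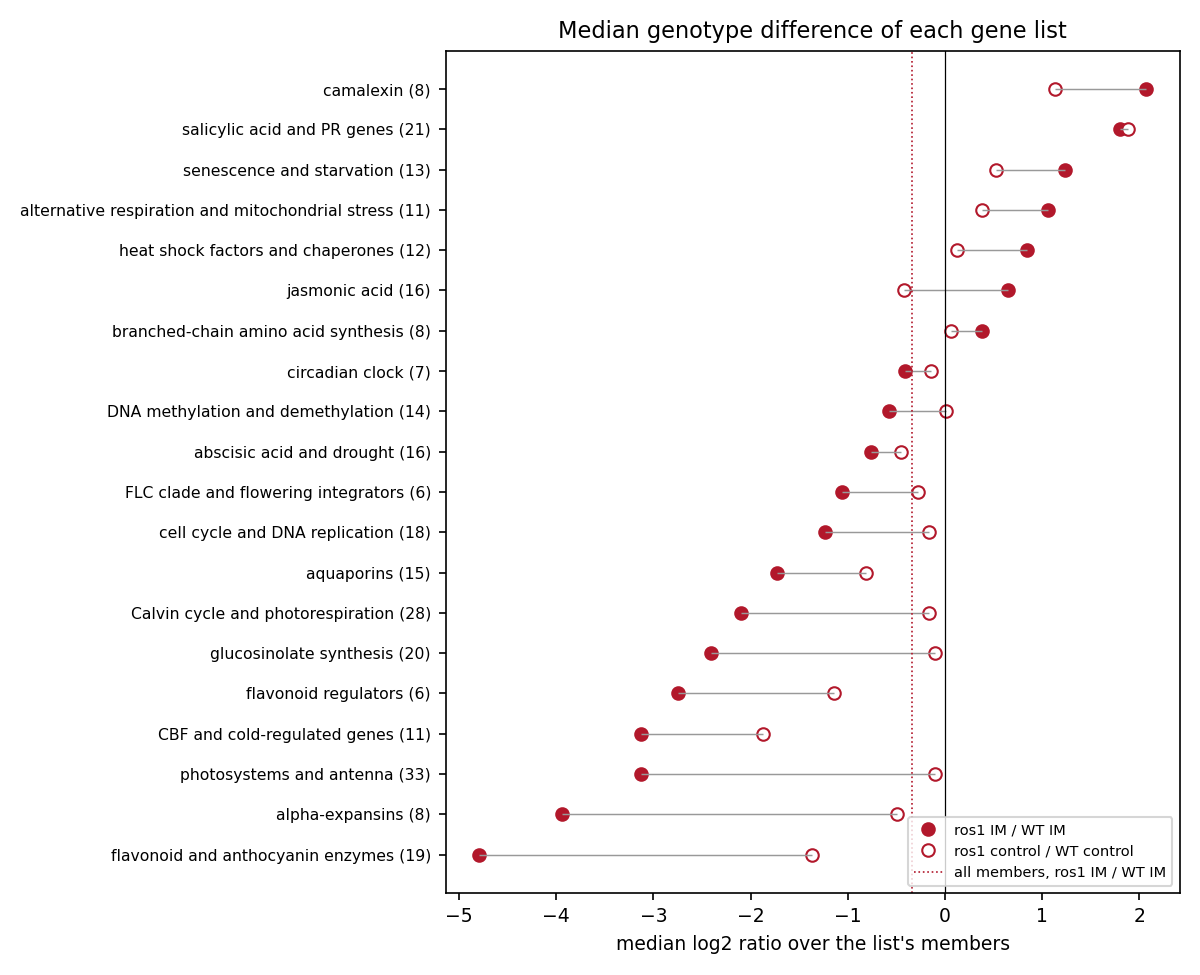
Median log2 ratio of each gene list with at least 6 members, with the number of members in brackets, as filled circles for *ros1* IM over WT IM and open circles for *ros1* control over WT control. The photosystem list has its open circle at −0.11 and its filled circle at −3.13, whereas both circles of the salicylic acid list lie near 1.8.

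Among genes higher only under treatment and with at least 1 FPKM in both treated groups, the 8 with the largest ratios lie outside these lists. *WRKY31* (AT4G22070), a WRKY transcription factor gene, had 50.9 FPKM in *ros1* IM and 1.13 in WT IM, against 0.546 in *ros1* control and 0.0543 in WT control. *NRT1.8* (AT4G21680), which removes nitrate from the xylem sap, had 63.5 in *ros1* IM and 2.30 in WT IM, and under 0.4 in both untreated groups. *JRG21* (AT3G55970), an oxygenase that inactivates jasmonic acid, had 72.5 in *ros1* IM and 2.89 in WT IM, and was also under 1 in both untreated groups. All were under 1 FPKM without herbicide and above 50 in *ros1* IM alone. The aldehyde oxidase gene *AO4* was 27.2-fold higher, the related oxygenase gene AT2G38240 20.4-fold, and the less known AT5G57510, AT2G31945 and AT2G15780 were 35.6-fold, 28.6-fold and 19.6-fold higher.

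Among genes already higher, again with at least 1 FPKM in both treated groups, *FLC* (AT5G10140), the MADS-box repressor of flowering, led the order. It had 131 FPKM in *ros1* IM and 2.52 in WT IM, against 135 in *ros1* control and 3.51 in WT control. Its level hardly differed between treatments. *SOC1* (AT2G45660), a flowering activator that FLC represses, had 4.17 in *ros1* IM and 31.6 in WT IM, against 7.58 in *ros1* control and 24.997 in WT control. The related *MAF1* (AT1G77080) was 19.2-fold lower and *MAF4* (AT5G65070) 7.63-fold higher in *ros1* IM, with 15.6-fold and 7.48-fold in the same directions without treatment. These 4 genes thus differed by genotype under both treatments. The glutaredoxin gene *GRXS13* (34.8-fold), the germin-like *GLP9* (37.0-fold), *NHL25* (28.6-fold), *BAP2* (28.4-fold), and AT4G10860, AT5G25260 and AT5G53700 (49.0-fold, 44.1-fold and 42.9-fold) completed the largest 8.

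Glucosinolates, the defence compounds of the cabbage family, have modifiers of their breakdown whose genes stood in opposite order in the lines. *ESP* (AT1G54040), which directs glucosinolate breakdown to nitriles, had 792 FPKM in *ros1* IM and 33.0 in WT IM, against 2631 in *ros1* control and 42.2 in WT control. *ESM1* (AT3G14210), which favours isothiocyanates, had 5.67 in *ros1* IM and 1158 in WT IM, against 70.0 in *ros1* control and 1644 in WT control. *ESP* and *ESM1* are both known to vary between natural accessions of *Arabidopsis*. Of 20 members of glucosinolate synthesis, 12 were at least 2-fold lower in *ros1* IM, 8 of them only under treatment, and 2 were higher, with medians of −2.40 with and −0.10 without herbicide. *MAM1* (AT5G23010), which elongates methionine chains, had 21.4 in *ros1* IM and 188 in WT IM, against 254 in *ros1* control and 308 in WT control. The remaining leading genes already lower were the stress protein gene AT3G22235 (187-fold) and the resistance homologue *HR4* (89.9-fold).

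In the pathway that imazethapyr blocks, few genes differed. *ALS* (AT3G48560), the acetolactate synthase gene, had 229 FPKM in *ros1* IM and 193 in WT IM, against 308 in *ros1* control and 293 in WT control, in tables other than this pair's sheet. Of 8 members of branched-chain amino acid synthesis, 6 differed by less than 2-fold, 2 were at least 2-fold lower and none was 2-fold higher. The 2 of 8 are near the 31.0% lower among all members, of which 17.1% were higher. *VAT1* (AT5G16290), a gene for a regulatory subunit of the enzyme, had 3.17 in *ros1* IM and 33.9 in WT IM, against 3.49 in *ros1* control and 37.8 in WT control. It was thus about equally low in *ros1* with and without herbicide. *AHASS2* (AT2G31810), for another regulatory subunit, had 44.6 in *ros1* IM and 34.2 in WT IM, against 57.5 in *ros1* control and 46.0 in WT control. *IMD1* (AT5G14200), a dehydrogenase that also serves glucosinolate synthesis, had 25.6 in *ros1* IM and 140 in WT IM, and was nearly equal in untreated plants.

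Genes of DNA methylation and demethylation were mostly close. Of 23 listed genes, 14 were members, 4 were at least 2-fold lower, all under treatment alone, and none was higher. The 4 of 14 are near the 31.0% lower among all members. These 4 are *ROS1* itself, *RDR2* (AT4G11130), which makes double-stranded RNA, *DCL3* (AT3G43920), which cuts it, and the histone acetyltransferase gene *IDM1* (AT3G14980). *RDR2* had 0.454 FPKM in *ros1* IM and 2.75 in WT IM, and *IDM1* had 1.91 in *ros1* IM and 5.80 in WT IM. In untreated plants no gene of this list differed 2-fold. Of genes described as *ROS1* targets elsewhere and chosen here after their values were seen, the resistance gene *RMG1* (AT4G11170) had 4.14 in *ros1* IM and 1.2006 in WT IM, against 1.1971 in *ros1* control and 0.00925 in WT control. The receptor-like gene *RLP43* (AT3G28890) had 7.63 in *ros1* IM and 2.96 in WT IM, against 4.31 in *ros1* control and 0.326 in WT control. Both were at least 2-fold higher in *ros1* in treated and untreated plants. That direction is opposite to the silencing described above for some genes when *ROS1* is missing, and the reason was not tested. The other 2 of the 4 genes looked up have no *ros1* IM value, *EPF2* having 9.24 in *ros1* control and 10.2 in WT control and *DOGL4* being listed at 0 in the other 3 groups.

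Gene families taken from RefSeq product names, with examples chosen after their values were seen, are set here against the 17.1% higher and 31.0% lower among all members. Of 33 glutathione S-transferase members, which conjugate toxic compounds, 21 were at least 2-fold higher and 6 lower. *GSTU11* (AT1G69930) had 124 FPKM in *ros1* IM and 6.48 in WT IM, while *GSTU20* (AT1G78370) had 55.4 in *ros1* IM and 579 in WT IM. Of 36 WRKY factors 21 were higher and 7 lower, and of 42 NAC factors 21 and 8. Of 77 UDP-glycosyltransferases 36 were higher and 21 lower, and of 91 cytochromes P450 31 were higher and 31 lower, the lower count being near the share over all members. Disease resistance proteins, mostly intracellular immune receptors, had 37 of 91 members lower and 21 higher, and 27 of the 37 were already lower in untreated plants. Leucine-rich repeat protein kinases had 47 of 94 lower, 40 of them only under treatment, with *ERECTA* (*ER*, AT2G26330) at 1.15 in *ros1* IM and 15.4 in WT IM. Cytosolic and organellar ribosomal proteins, at 6 higher and 38 lower of 196, mostly differed by less than 2-fold, with a median log2 ratio of 0.37. Of the 38, 33 were lower only under treatment. The plastid-specific *PSRP4* (AT2G38140), already lower in untreated plants, was the furthest lower, at 6.23-fold.

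**Figure D4:**
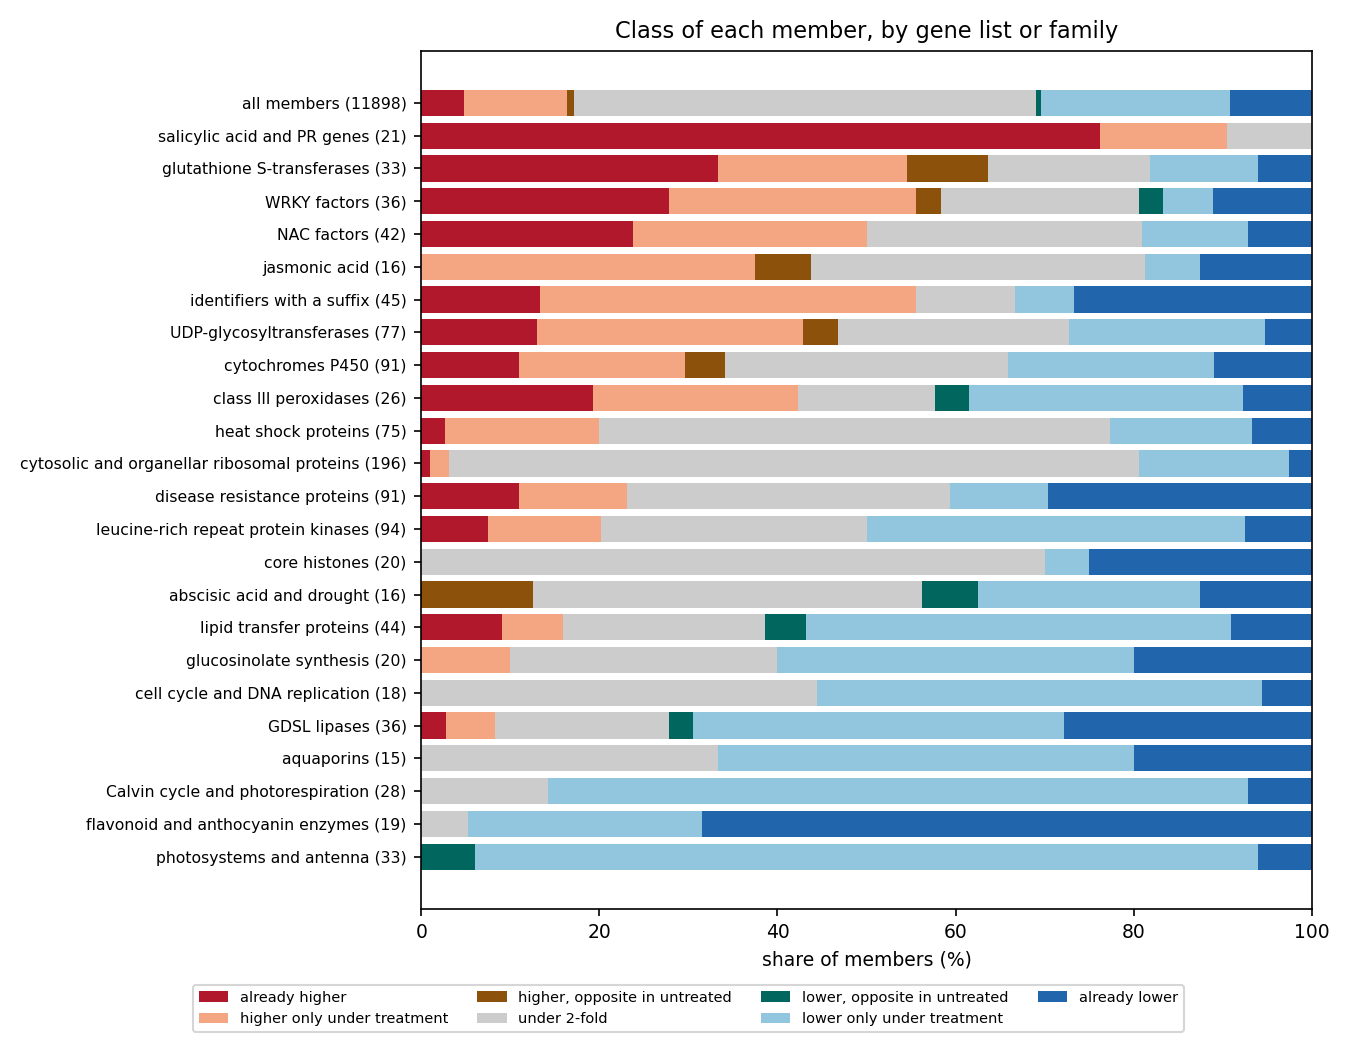
Share of the members (%) of each list or family with at least 15 members that fall in each class, ordered by the balance of higher and lower genes, with all 11898 members on top. Dark red and dark blue mark genes already different in untreated plants, light colours those different only under treatment, and brown and green those opposite in untreated plants.

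Some genes were listed at 0 in 1 treated group, so no fold is given for them. There were 175 genes at 0 in *ros1* IM, of which 37 had at least 1 FPKM in *ros1* control, and 79 at 0 in WT IM, of which 1 had at least 1 FPKM in WT control. The highest of those at 0 in *ros1* IM was the locus AT2G15128, with 60.9 FPKM in WT IM, followed by the glycine-rich protein gene *GRP9* (AT2G05440) with 40.1 and AT2G14460 with 33.4. The defensin gene *PDF1.2b* (AT2G26020), a marker of jasmonate and ethylene, was listed at 0 in *ros1* IM and at 16.8 in WT IM. Others at 0 in *ros1* IM were *SNOR108*, AT1G57630, AT2G15292 and AT1G35320, with between 20.5 and 23.0 in WT IM. On the other side, AT1G36240, annotated as a ribosomal protein, was listed at 0 in WT IM and had 18.7 in *ros1* IM, and the MADS-box gene *AGL96* had 11.7. The wall-associated kinase gene *WAKL4* and AT5G26345, AT3G31955, AT1G36078, AT5G03550 and AT5G15360 followed, with between 6.07 and 10.5 in *ros1* IM.

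Markers of other organs were mostly low. Of 8 flower organ genes, 6 were under 1 FPKM in every group with a value. *SEP2* had 0.306 FPKM in *ros1* IM and 0.0197 in WT IM, against 1.16 in *ros1* control and 0.0259 in WT control, and *SEP3* had 1.65 FPKM in *ros1* IM and 0.540 in WT IM. Of 9 root genes, *SHR* and *SCR*, which leaves also express, had 7.87 and 8.86 in *ros1* IM and 5.77 and 9.39 in WT IM, and the others did not exceed 1.04 in any group with a value. Photosynthesis genes were abundant in the untreated groups, as is usual for green leaves.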

How the data were processed

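Rosette RNA was sequenced in 8 libraries, with 2 in each of 4 groups. Per the submitters' processing notes and the study's methods, reads were checked with FastQC 0.10.1, trimmed, aligned to TAIR10 with Bowtie2 and TopHat2 and quantified with Cufflinks. The versions of these aligners and of Cufflinks are not given in the sources used here. The deposited FPKM values are the authors' pooled value per group, so n is 1 per group in every comparison. The authors' fold changes, test statistics, p-values and q-values are columns of the same tables and were not used. The study reports that a smaller share of *ros1* than of wild-type reads was aligned. Of the tables, 7 were read. A gene had the same FPKM for a group in every table that held it (0 unequal among 81037 pairs). The sheet of the treated genotypes lists genes that the authors marked as significant, 12189 of 12189.

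The log2 ratio of pooled FPKM was computed with no pseudocount for genes with at least 1 FPKM in 1 treated group, and 2-fold was the threshold. A gene was already different where the untreated genotypes differed at least 2-fold the same way with at least 1 FPKM in 1 of them. A gene opposite in untreated plants was counted apart, and all other genes past 2-fold count as different only under treatment. FPKM is a share of a library, so fewer reads of abundant transcripts raise the values of the rest. The classification was tested on simulated data. The calculations used pandas 2.3.3 and numpy 2.4.6.

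Genes named were *ROS1*, the 8 largest of each of the 4 main classes with at least 1 FPKM in both treated groups, the 8 highest at 0 in each treated group, the 6 with the largest opposite difference, up to 6 per list and the 2 nearest the threshold on each side. *UBQ10* is among the reference genes, and *ALS*, *SHR*, *SCR*, *BGLU10*, *JAZ3*, *JAZ9*, *JAZ12*, *SAG12*, *TTG1*, *SEP2*, *AHASS2*, *CYP707A1*, *CYP707A3* and the family examples were named outside this rule after their values were seen, as were loci at or near off in 1 line. The members and the 28 gene lists were chosen with earlier results of these data known. Product names and gene starts come from RefSeq TAIR10.1, to which 11875 of the 11898 genes were matched, and promoter sequences were read from its genome. Alternatives were FPKM of at least 5 or no filter, a pseudocount of 1, values joined from every table, centring, a 4-fold threshold, and a 1.5-fold threshold or no filter for the untreated groups. Leaving out a library was not possible with pooled values. No paired analysis was possible because the tables hold 1 pooled value per group.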

Additional observations from a re-analysis of the deposited data

Results flagged for a closer look

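Some genes differed between the genotypes in opposite directions with and without herbicide. There were 89 genes at least 2-fold higher in *ros1* IM and at least 2-fold lower in *ros1* control, and 65 genes at least 2-fold lower in *ros1* IM and at least 2-fold higher in *ros1* control. The change of direction was not tested, since each group has a single pooled value. Values follow for the 6 genes with the largest change of direction. *ACA2* (AT2G28210), an alpha carbonic anhydrase gene, had 121 FPKM in *ros1* IM and 5.29 in WT IM, against 0.475 in *ros1* control and 7.36 in WT control. The lipid transfer gene AT3G53980 had 2.30 in *ros1* IM and 293 in WT IM, against 18.18 in *ros1* control and 6.02 in WT control. The nudix hydrolase gene *NUDT24* (AT5G19470) had 4.72 in *ros1* IM and 128 in WT IM, against 1.64 in *ros1* control and 0.194 in WT control. The cell wall enzyme gene *XTH18* (AT4G30280) had 10.2 in *ros1* IM and 0.225 in WT IM, against 0.369 in *ros1* control and 1.92 in WT control. AT3G24420 had 9.99 in *ros1* IM and 2.16 in WT IM, but 4.19 in *ros1* control and 165 in WT control. AT5G51680 had 10.099 in *ros1* IM and 2.86 in WT IM, and 0.000522 in *ros1* control against 1.25 in WT control. The jasmonate repressor gene *JAZ1* (AT1G19180) was of this kind as well, 5.81-fold higher in *ros1* IM and 2.07-fold lower in *ros1* control.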

How the results depend on the processing

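Of 49 values computed under 8 alternatives for 7 results, 41 stayed within 1.5 times the reported count, or within 0.1 of the reported median. With a 4-fold threshold, 831 genes were higher and 1744 lower in *ros1* IM. Of these, 218 were already higher, 381 already lower, 598 higher only under treatment and 1352 lower only under treatment. The median log2 ratio of the members, −0.33, changed sign to 0.33 with an FPKM of at least 5 and to 0.01655 with values joined from every table. The sheet holds few genes with a ratio near 1, so its median is not a stable centre. Over 14476 genes with at least 1 FPKM in both treated groups the median was 0.07. Calling untreated plants different from 1.5-fold moved 175 genes from higher only under treatment to already higher and 510 from lower only to already lower. Leaving out libraries was not run, since values are pooled, and the spread between libraries and the depth set limits that cannot be stated here. No paired analysis was possible because the tables hold 1 pooled value per group.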
